A study of Mus musculus with 6 samples.

Results

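The list of genomic regions deposited with this ATAC-seq study of mouse prostate holds 1129 wide regions that lie deep inside genes. Nearly all listed regions have one of 2 fixed widths, 0.451 kb or 0.143 kb, called wide and narrow here. A region was taken as a member when it was exactly 0.451 kb long, its centre lay inside the span of a protein-coding gene (RefSeq, GRCm38) and that centre was over 2.5 kb from every protein-coding gene end, on either side of any gene. The members were 17.4% of the 6502 listed regions (exact 95% interval 16.5 to 18.3) and 34.3% of the 3291 regions of that width (32.7 to 36.0). They covered 509 kb in all. The members nearest to the distance limit had centres 2505, 2513 and 2595 bases from a gene end, and the regions of that width inside genes just short of it lay 2496, 2475 and 2474 bases from one. ATAC-seq marks open chromatin by the insertions of a transposase. The cells were basal stem cells sorted from dissociated prostate as CD45-CD31-Sca-1+CD49f+, used fresh without culture, in 3 naive and 3 inflamed libraries. The inflamed libraries carry the genotype label POET3, a strain whose prostate expresses ovalbumin as a transgene, and their mice received activated splenocytes of OT-1 mice 7 days before harvest. The naive libraries carry the label WT and the treatment label control, while the protocol text speaks of POET3 mice for both states, so genotype and inflammation cannot be told apart. The promoter of the transgene and any pooling of animals are not given in the sources used here.

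The file gives positions alone. It has no signal, fold change, direction, p-value or value per library, so openness in the 2 states cannot be compared for any region, no replicate error exists, depth is unknown, and the sorted identity could not be checked against expressed markers. The file name contains "diff" and edgeR is among the tools named by the submitters, and the list was read on that ground as one of regions that differ between the states. The meaning of the widths is not given in the sources used here. What can be measured is where the members lie, in which genes, beside which annotated transcription starts and with what sequence there. They were compared mainly with the 1361 narrow regions that satisfy the same position rule. All regions come from the same 6 libraries, and neighbouring regions are not independent, so the tests below describe this list and their p-values are smaller than independent regions would give.

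Open chromatin inside a gene body usually marks either an enhancer, which can act on the host gene or on another gene, or an internal promoter, from which a shorter or differently spliced transcript begins. Promoters rich in the dinucleotide CpG are a common class in mammals and are often open in many cell types, whereas enhancers are more restricted and often carry sites for lineage factors such as p63 in basal epithelium or for signal-dependent factors such as AP-1 and NF-kB. In basal cells of the prostate, p63, keratins and laminin-binding integrins define the lineage.

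A small group of members lay on transcription starts that fall inside a gene's annotated span, which need not be internal promoters. Of the 1082 members on chromosomes for which starts were listed (all but 18), 51 (4.71%, exact 95% interval 3.53 to 6.15) touched the 300-base window around an annotated start, 250 bases before to 50 after it. In 44 of the 51 the start belonged to the gene that held the region, and in 9 a non-coding gene on the opposite strand began there, 2 members doing both. The table of starts lists 5274 windows deep inside protein-coding genes, and members touched 60 of them, or 1.14%. The sequences below are the stretches of those windows that lie inside a member, for the leading genes of this set and for windows that carry a match to a factor of inflammation or epithelium. The second group was picked for its matches, so the 8 do not stand for all touched windows. Capitals mark matches to a searched motif, and each runs 5' to 3' on the gene's strand (RefSeq, GRCm38.p6). In the order printed they lie at chr10:18407425-18407724 (plus strand), chr10:94514607-94514845 (plus), chr1:52630578-52630754 (plus), chr4:74251739-74251928 (plus), chr6:58640312-58640595 (plus), chr6:53573124-53573423 (plus), chrX:82948620-82948919 (plus) and chr19:32349267-32349566 (minus).
Nhsl1: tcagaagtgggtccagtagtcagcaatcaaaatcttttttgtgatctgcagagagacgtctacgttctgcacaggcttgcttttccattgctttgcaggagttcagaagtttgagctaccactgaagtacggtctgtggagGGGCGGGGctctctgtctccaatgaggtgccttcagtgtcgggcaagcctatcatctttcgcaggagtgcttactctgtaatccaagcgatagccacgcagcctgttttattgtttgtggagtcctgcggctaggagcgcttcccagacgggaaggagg
Tmcc3: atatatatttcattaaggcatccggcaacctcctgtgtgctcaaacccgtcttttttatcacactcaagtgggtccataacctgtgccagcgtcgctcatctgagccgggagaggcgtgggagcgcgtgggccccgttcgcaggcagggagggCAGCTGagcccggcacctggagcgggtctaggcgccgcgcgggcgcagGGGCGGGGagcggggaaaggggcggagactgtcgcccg
Nemp2: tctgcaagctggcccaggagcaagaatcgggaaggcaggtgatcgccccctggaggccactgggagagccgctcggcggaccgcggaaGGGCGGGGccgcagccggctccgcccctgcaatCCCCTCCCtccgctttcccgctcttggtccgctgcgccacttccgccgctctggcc
Kdm4c: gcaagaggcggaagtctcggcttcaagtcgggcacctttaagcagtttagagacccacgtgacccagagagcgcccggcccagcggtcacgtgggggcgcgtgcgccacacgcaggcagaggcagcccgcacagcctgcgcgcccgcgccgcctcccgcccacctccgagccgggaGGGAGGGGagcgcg
Abcg2: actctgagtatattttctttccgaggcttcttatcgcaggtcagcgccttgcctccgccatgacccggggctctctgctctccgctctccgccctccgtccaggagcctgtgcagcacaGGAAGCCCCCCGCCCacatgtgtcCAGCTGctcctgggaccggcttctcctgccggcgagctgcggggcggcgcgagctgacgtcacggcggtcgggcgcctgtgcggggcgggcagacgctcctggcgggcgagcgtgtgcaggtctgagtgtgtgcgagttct
Creb5: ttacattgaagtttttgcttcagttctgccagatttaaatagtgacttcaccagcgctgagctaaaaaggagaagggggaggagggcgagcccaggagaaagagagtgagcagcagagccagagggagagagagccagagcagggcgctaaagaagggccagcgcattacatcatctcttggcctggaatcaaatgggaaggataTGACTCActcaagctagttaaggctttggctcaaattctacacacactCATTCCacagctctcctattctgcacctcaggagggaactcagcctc
Dmd: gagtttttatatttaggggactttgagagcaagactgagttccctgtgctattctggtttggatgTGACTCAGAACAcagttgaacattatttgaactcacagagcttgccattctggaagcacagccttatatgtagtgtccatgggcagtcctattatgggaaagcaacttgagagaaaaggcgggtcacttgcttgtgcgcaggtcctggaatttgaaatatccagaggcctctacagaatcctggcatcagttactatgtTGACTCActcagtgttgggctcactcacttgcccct
Sgms1: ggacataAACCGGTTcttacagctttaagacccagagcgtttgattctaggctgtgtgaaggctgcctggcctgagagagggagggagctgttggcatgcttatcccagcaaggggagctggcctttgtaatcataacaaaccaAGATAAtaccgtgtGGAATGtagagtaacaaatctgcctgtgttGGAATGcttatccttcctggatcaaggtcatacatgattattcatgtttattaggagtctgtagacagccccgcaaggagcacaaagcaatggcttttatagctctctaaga

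The first 4 of these belong to genes that lead the set by number of regions or stand in a gene list below. Nhsl1, a regulator of cell migration, has a start at base 18407675 of chromosome 10, 90.0 kb inside its annotated span. No Nhsl1 start is listed nearer to the 5' end of that span. The member's centre lay 89 bases upstream of this start. Its window is 51.7% G and C with 11 CpG and holds one KLF and SP match (GGGCGGGG) 109 bases before the start. Tmcc3, which encodes a membrane protein of the endoplasmic reticulum, has a start 203 kb inside the gene, and the window has 31 CpG and 69.0% G and C. Nemp2, a nuclear envelope protein gene, had the member 98 bases downstream of a start that lies 62.2 kb inside its span, with 23 CpG. Kdm4c, a histone lysine demethylase gene, had a member centred 85 bases downstream of a start 9.38 kb inside the gene, with 28 CpG. Each of these printed stretches holds a KLF and SP match, which in Kdm4c reads GGGAGGGG and in the others includes GGGCGGGG.

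The other 4 windows carry rarer matches. At the start of Abcg2, the efflux transporter used to mark side-population stem cells, the member's centre was 9 bases upstream of the start, and the window holds an NF-kB type match (GGAAGCCCCC, read on the other strand) that overlaps a KLF and SP match. Creb5, which encodes a leucine zipper factor of the CREB and ATF family, has a start 286 kb inside its gene, with an AP-1 match (TGACTCA) 45 bases before it and only 4 CpG. The start inside Dmd, the dystrophin gene, lies 134 kb from the gene's 5' end. Its window has 2 CpG and 2 AP-1 matches, and the first of them overlaps the steroid receptor letters AGAACA by its last base. Sgms1, a sphingomyelin synthase gene, has the single GRHL match (AACCGGTT) of the set, at 243 bases before a start 40.6 kb inside the gene, and also 2 TEAD matches (GGAATG) and a GATA match (AGATAA). A match is a run of letters and not a measured binding site.

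The starts touched by members were rich in CpG. Of the 49 own-gene windows, 29 (59.2%) had over 50% G and C with a CpG count above 0.6 of that predicted from base composition, against 17.8% of all windows deep inside genes and 33.3% of all 32851 windows in the table. Their median G and C was 62.3%, against 51.0% deep inside genes, and their median CpG count was 19 against 5. These 49 are all starts of protein-coding genes, while the sets they are compared with also hold starts of non-coding genes. The part of gene type in these differences was not tested. The KLF and SP letters (GGGNGGGG or GGGTGTGG, either strand) were in 25 of 49 windows (51.0%), against 30.7% deep inside genes and 35.4% of all. These letters are themselves G-rich, so their share and base composition move together, and the part of composition was not tested. AP-1 letters (TGANTCA) were in 2 of 49 (4.08%), against 8.84% deep inside genes. The steroid receptor letters were in 4 (8.16%), against 21.7%. E-box letters (CAGCTG) were also in 4 (8.16%), against 19.3%. NF-kB letters (GGG, 3 bases of any kind, TTCC) were in 2 (4.08%), against 5.37%. Over all 60 touched windows, starts of other genes included, E-box letters were in 10 (16.7%), nearer to the share deep inside genes. There KLF and SP letters were in 31 (51.7%), AP-1 letters in 2 (3.33%) and steroid receptor letters in 4 (6.67%). Several genes contribute more than a single window, and no test was made of these shares. The part of base composition was not tested for the AP-1, steroid receptor, E-box and NF-kB letters either. Among the 49 windows, the AP-1 and NF-kB shares rest on 2 windows each.

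A region that touches a window has its centre close to the start by construction. For the nearest own-gene start of each of the 44 members, the distance from the centre had a median of 91.5 bases (range 0 to 471), and 26 were within 100 bases. In 23 the centre was downstream of the start, in 20 upstream and in 1 on it. The starts themselves lay a median of 22.7 kb from the 5' end of the gene, from 2.52 kb in Cntln to 1036 kb in Robo2, a receptor gene of SLIT ligands, whose member was centred 2 bases upstream of the start. For 18 of the 44 the table lists a single start for the gene. There the deep position reflects a longer annotated span and not a second listed promoter. For 26 it lists several, which need not be separate promoters. In Cd47 they include bases 49855654 and 49855661, and in Nhsl1 the touched start is the listed one nearest to the 5' end. Other genes with a member on a start of their own include Fbxw7, a ubiquitin ligase subunit, at 137 kb from the 5' end. Further ones were Nedd9, a focal adhesion scaffold, at 128 kb, and Sptbn1, a spectrin gene, at 70.1 kb. In Cd47, an inhibitory ligand for phagocytes, the start lay at 4.33 kb, and in Cdyl, a chromodomain gene, at 81.6 kb. Whether any of these is a second promoter of its gene was not tested.

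The 9 members on the start of an opposite-strand gene include Bmp4, a ligand gene of the BMP pathway, where the start belonged to the non-coding gene Gm15222 and the centre lay 54 bases downstream of it. At Hsf2, a heat shock factor gene, a non-coding start and the gene's own start lay within the same member, 8 and 24 bases from the centre. The others with an opposite-strand start were in Nrp2, Mia3, Mboat1, S1pr3, Ntrk2, Mylk and Tmcc3, the last beside its own start. In each of these the gene on the other strand was a lncRNA gene.

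Centres of members were in start windows more often than those of the narrow regions inside genes. The centre was used because a wide region touches a window more easily. It fell in an annotated window in 26 of 1082 members (2.40%, exact 95% interval 1.58 to 3.50) and in 10 of 1296 narrow regions (0.772%, 0.371 to 1.41), a 3.11-fold ratio (Fisher's exact test, two-sided, adjusted p = 0.00402 over 13 features). For windows of the same gene the counts were 22 and 6 (4.39-fold, Fisher's exact test, adjusted p = 0.00187). Counted by any overlap, 51 of 1082 members touched a window and 11 of 1296 narrow regions did (0.849%). Chromosome 13 carried 11 of the 51. Without chromosomes 10 and 13 the difference in centres was 1.00 percentage points and did not pass (Fisher's exact test, adjusted p = 0.111), while that for same-gene windows was 1.23 points and did (adjusted p = 0.0262). Against the wide regions lying 2.5 to 100 kb outside genes the difference did not pass, with 15 of 946 centres (1.59%) in a window there (Fisher's exact test, adjusted p = 0.278 over 4 features).

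**Figure D1:**
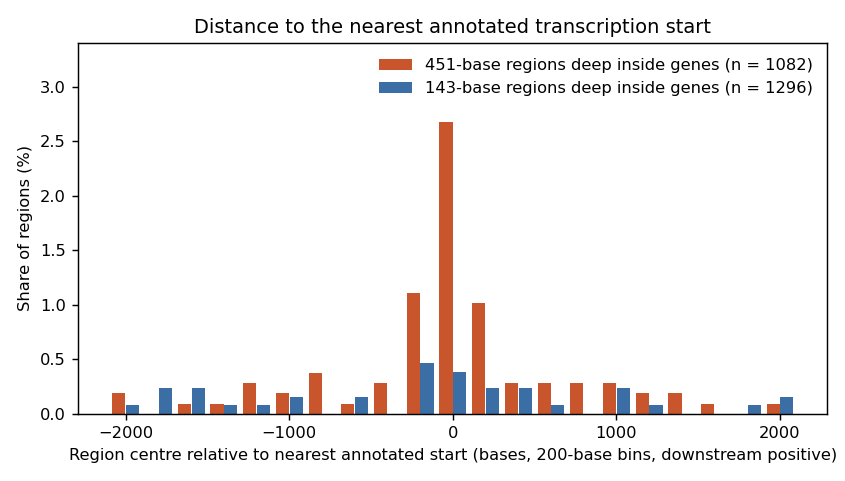
Signed distance from the region centre to the nearest annotated transcription start (x axis, bases, downstream positive, bins of 200 bases) against the share of regions (y axis, percent), for 1082 wide and 1296 narrow regions deep inside genes. The bars of wide regions peak at the start, and the share within 1 kb of a start was 6.56% for them and 1.70% for the narrow regions.

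Most members were far from any start. The median distance from a member to the nearest annotated start was 31072.5 bases, and 12.1% (exact 95% interval 10.2 to 14.2) lay within 5 kb of one. The annotation used here does not divide gene bodies into introns and exons. The median distance to the nearest gene end was 30.6 kb, with a middle range from 12.3 to 82.3 kb, and 229 members (20.3%) were over 100 kb from every gene end. The deepest lay in Dlg2, a synaptic scaffold gene, 969 kb from the nearest end (chr7:91444992-91445442). It was followed by members in Fhit at 798 kb, Macrod2 at 723 kb, Lsamp at 713 kb and Ptprd at 712 kb, all in genes of 1612 kb or more.

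Along the gene the members were spread nearly evenly. For the 897 members whose gene has a strand in the start table, a division of the span into 5 equal parts from 5' to 3' gave 170, 187, 178, 191 and 171 members. The part at the 5' end held 19.0% of members (exact 95% interval 16.4 to 21.7) and 15.3% of the narrow regions (13.2 to 17.7), a difference that did not pass (Fisher's exact test, adjusted p = 0.0647). Nearer to the 5' than to the 3' end lay 50.7% of members and 51.4% of narrow regions (adjusted p = 0.915, same test).

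Members lay in longer genes than the narrow regions did. The median span of the gene around a member was 163 kb, and around a narrow region it was 130 kb. Genes of over 200 kb held 486 members (43.0%, exact 95% interval 40.1 to 46.0) and 487 narrow regions (35.8%, 33.2 to 38.4; Fisher's exact test, adjusted p = 0.00156). Genes of under 50 kb held 188 members (16.7%) and 282 narrow regions (20.7%; Fisher's exact test, adjusted p = 0.0263), a call lost when the distance limit was 5 kb or 10 kb (adjusted p = 0.144 and 0.529). Over 50 kb from every gene end were 37.1% of members and 32.8% of narrow regions, which did not pass (adjusted p = 0.0543, same test).

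Wide regions were less often grouped within 10 kb than narrow ones. The median distance to the nearest region of the same width was 109957 bases for members and 116759 for narrow regions inside genes. The upper quartiles were 288032 and 347796 bases, so the order did not hold at larger distances. Another wide region lay within 10 kb of 80 members (7.09%, exact 95% interval 5.66 to 8.74), while 181 of the narrow regions inside genes (13.3%, 11.5 to 15.2) had a neighbour of their own width that close (Fisher's exact test, adjusted p = 4.74e-06). Among the wide regions that flank genes at 2.5 to 100 kb the share was 7.65%, which did not pass against the members (Fisher's exact test, adjusted p = 0.676). The widths seldom met. A narrow region lay within 10 kb of 11 members (0.974%), and a wide region within 10 kb of 15 of the 1361 narrow ones inside genes (1.10%; Fisher's exact test, adjusted p = 0.915). Of the 981 wide flanking regions, 32 had a narrow region that close, more than among the members (3.26%; Fisher's exact test, adjusted p = 0.000552). The closest pair of members was 1656 bases apart, centre to centre, inside Iqgap2, a scaffold gene of the actin cytoskeleton (chr13:95880551-95881001 and chr13:95882207-95882657). Next came a pair 1728 bases apart in Tcf4, an E-protein gene, and pairs 5246 bases apart in Astn2, 5272 in Cd38, an NAD-consuming ectoenzyme, and 5300 in Lrrc1.

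The members' chromosomes differed from those of the narrow regions. Chromosome 13 held 80 members (7.09%) and 49 narrow regions (3.60%; Fisher's exact test, adjusted p = 0.000991 over 20 chromosomes). Chromosome X held 46 (4.07%) and 21 (1.54%), with the same adjusted p of 0.000991 (Fisher's exact test). In the other direction, chromosome 11 held 30 members (2.66%) and 88 narrow regions (6.47%, Fisher's exact test, adjusted p = 0.000133), chromosome 5 held 54 and 108 (adjusted p = 0.00717), and chromosome 19 held 23 and 55 (adjusted p = 0.0209). The calls on chromosomes 5 and 19 were lost with a distance limit of 10 kb (Fisher's exact test, adjusted p = 0.0779 and 0.0574). Chromosome 10 held 84 members and 70 narrow regions, which did not pass (adjusted p = 0.0642). None of these chromosomes passed between the members and the wide flanking regions. On chromosome 13 those stood at 7.85% (Fisher's exact test, adjusted p = 0.787), and there only chromosome 3 passed, with 5.05% of members and 8.46% of flanking regions (adjusted p = 0.0412).

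**Figure D2:**
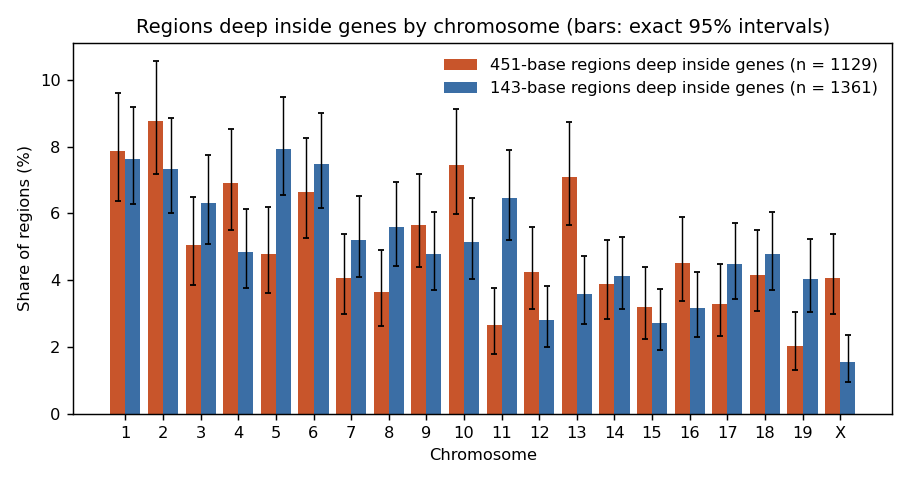
Share of regions deep inside genes (y axis, percent) on each chromosome (x axis) for 1129 wide and 1361 narrow regions, with exact 95% intervals that cover counting error only. Bars of wide regions are higher on chromosomes 13 and X and lower on 5, 11 and 19, and neither width had a region deep inside a gene on chromosome Y.

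The members were held by 842 genes. A single member was in 653 of them, 2 were in 131, 3 in 34, 4 in 16 and 5 or more in 8. Of the 16853 protein-coding genes of 5 kb or more, 5.0% held a member. That share depended on span: it was 1.51% for genes of 5 to 50 kb, 9.43% for 50 to 200 kb and 29.2% for those over 200 kb, so a long gene holding a member is common. A narrow region deep inside was found in 1061 genes, and 167 genes held both widths, 19.8% of the genes with a member and 15.7% of those with a narrow region.

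**Figure D3:**
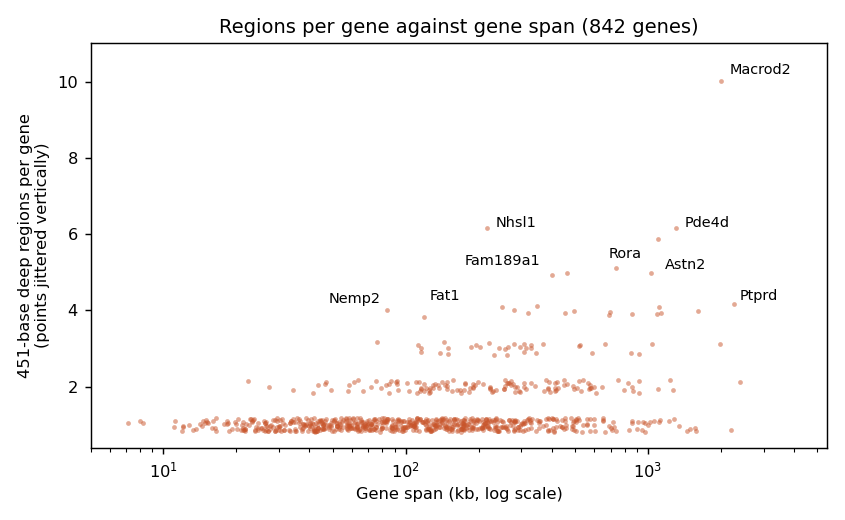
Number of wide regions deep inside each gene (y axis, jittered for display) against gene span (x axis, kb, log scale) for the 842 genes that hold any. Macrod2 leads with 10 in 1998 kb, while Nhsl1 holds 6 in 216 kb and Nemp2 holds 4 in 83.4 kb.

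The 8 genes with 5 or more members ranged in span from 216 kb to 1998 kb. Macrod2, which encodes an ADP-ribose hydrolase, held 10 over 1998 kb, from 431 kb to 1978 kb from its 5' end. Pde4d, a cAMP phosphodiesterase gene of 1302 kb, held 6 in 2 stretches, a pair at 662 and 690 kb and the other 4 from 1099 to 1249 kb. Anks1b held 6 over 1100 kb, all of them between 744 and 856 kb from the 5' end. Astn2, an astrotactin gene, held 5 in the last part of its 1024 kb, the first 766 kb and the last 941 kb from the 5' end. Rora, the gene of a nuclear receptor, held 5 from 288 to 574 kb along its 735 kb, and Pakap held 5 from 177 to 305 kb along its 463 kb. Fam189a1 held 5 along 400 kb.

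Nhsl1 (chr10:18317665-18533892), the shortest of the 8, held 6 members and no narrow region deep inside, or 2.77 per 100 kb of annotated span. The members were spaced from 12.2 kb to 210 kb from its 5' end. Those at 12.2 and 71.3 kb lay wholly upstream of every start listed for Nhsl1. Of the 16 genes with exactly 4 members, the 4 of highest density are described here. Nemp2 (chr1:52568535-52651919) held 4, or 4.8 per 100 kb, and 1 of the 4 touches the start printed above. Fat1, an atypical cadherin that restrains growth (chr8:44933100-45052257), held 4, or 3.36 per 100 kb. All lay in the 5' part of its annotated span, at 4.99, 37.97, 47.2 and 52.7 kb from the 5' end. The member at 4.99 kb was upstream of every start listed for Fat1. Pappa2, a protease gene that cleaves IGF-binding proteins, held 4 in 249 kb, and Tmcc3 held 4 in 279 kb. Among genes with 3 members the highest densities were those of Gm44812 (3.96 per 100 kb), Wnt5b, a Wnt ligand gene (2.67), Lrrc1, a polarity protein gene related to Scribble (2.59), Rerg, a Ras-like growth inhibitor gene (2.59), Col4a4, a basement membrane collagen gene (2.16), Itga1, the collagen-binding integrin alpha subunit (2.08), and Cttnbp2 (2.02). None of these 7 had a narrow region deep inside, as was so for most genes with a member, of which 19.8% held one. In Gm44812 the members 5.82 and 12.2 kb from the 5' end were upstream of every start listed for it. Densities were taken over the annotated span, whether or not a start is listed at its 5' end.

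**Figure D4:**
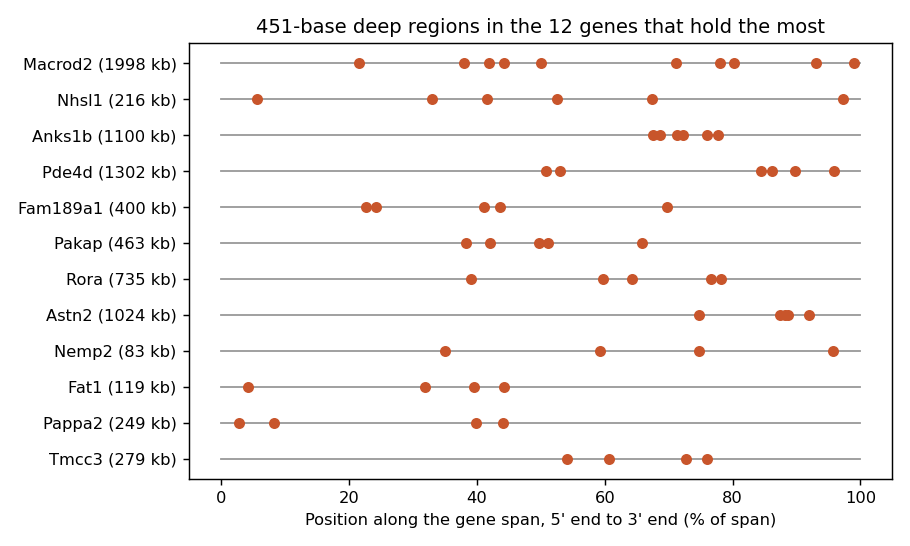
Position of each member (points) along 12 genes (rows, with the span in kb), the 8 with 5 or more members and the 4 densest of the 16 with exactly 4, from the 5' end to the 3' end (x axis, percent of span). Members of Anks1b and Astn2 sit in the 3' part and those of Fat1 in the 5' part, while Macrod2 and Nhsl1 have them along most of the span.

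Genes of signalling, adhesion and lineage were read from 13 lists of pathway genes and 7 of cell type markers. The pathway lists name 342 genes, of which 323 are 5 kb or more, and 51 held a member (the share over all genes of that size was 5.0%). That 5.0% is not matched for span. Median spans of whole lists ran from 27.1 kb in the IL-1 family list to 319 kb in the cAMP and calcium list. Over all protein-coding genes of 5 kb or more the median was 25.8 kb. The lists differ greatly in gene length, so each count is read beside the shares by span given above, and none was tested.

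In each of 2 inflammatory lists, genes holding a member numbered 2. Of 26 genes of NF-kB and TNF signalling, 2 held one (7.69%). Tnfaip3, the gene of the NF-kB inhibitor A20, had it at chr10:19009260-19009710, 5.93 kb from the 5' end of a 14.5 kb gene, and Birc3, a ubiquitin ligase of TNF receptor complexes, at chr9:7867940-7868390, 5.04 kb from its 5' end. Of 22 IL-1 family genes, 2 held one (9.09%). They were Il1rap, the shared accessory subunit of IL-1 family receptors, at chr16:26642910-26643360, 61.6 kb along its 149 kb, and Il18r1, the IL-18 receptor subunit, at chr1:40472400-40472850. Il1rn, the gene of the IL-1 receptor antagonist named in the title of the series, held no member but 1 narrow region, and the nearest member was 3817 kb away. Il1r1, the signalling IL-1 receptor, held none of either width, its nearest member being that of Il18r1, 156 kb away. Nfkb1, a subunit gene, also held none. In the IL-1 list 5 genes held a narrow region, Il1rn, Il1r2, Il1rl1, Il18rap and Irak2, and in the NF-kB list 4 did, Bcl3, Ikbkb, Tnip1 and Tnip3, none of them with a member. Over all genes, 15.7% of those with a narrow region also held a member.

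Ncoa2, a steroid receptor coactivator gene, had 1 member, 17.4 kb from a gene end. Fkbp5, which encodes a chaperone-associated immunophilin, had none, and the nearest member was 1612 kb away.

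Adhesion genes held members at a share of 16.7% (4 of 24) for contact with matrix and of 19.2% (5 of 26) for junctions and polarity. In the matrix list 6 genes were over 200 kb, 1 with a member, and 12 were 50 to 200 kb, 3 with one. In the junction list 7 were over 200 kb, 2 with a member, and 8 were 50 to 200 kb, 3 with one. Over all genes of those classes 29.2% and 9.43% held one. Beside Itga1, whose 3 members lay 49.7, 70.4 and 87.7 kb from the 5' end, the nearby gene Itga2, another collagen-binding alpha subunit, had 1 at chr13:114895818-114896268. Itgb8, an integrin that activates TGF-beta, had 2, at 10.1 and 20.2 kb from its 5' end, and Tln2, a talin gene, had 1. In the junction list Fat1 had 4, and Pkp2 and Pkp4, genes of desmosome and junction plaque proteins, had 1 each, as did the polarity and scaffold genes Pard3b and Magi2. The integrin alpha-6 gene Itga6, whose product CD49f was used to sort the cells, is on these lists and held no member.

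Genes of cAMP and calcium signalling held members in 8 of 22 (36.4%). All 8 were over 200 kb, a class of which this list has 14 and in which 29.2% of all genes held a member. Pde4d had 6 and Plcb1, a phospholipase C gene, had 4, at 79.0, 105, 176 and 266 kb from its 5' end. Pde4b, Itpr2, an IP3 receptor gene, and Camk1d had 2 each, and Prkce, Camk2d and Plcb4 had 1 each.

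Transcription factors of epithelium and stress held members in 8 of 35 genes of 5 kb or more (22.9%), all of them among the 13 over 200 kb. Trp63, the gene of p63, held 2, at chr16:25780076-25780526 and chr16:25825998-25826448, 96.5 and 65.9 kb from the nearer gene end. Rora held 5 and Tcf4 held 3. Sox6 held 2 close to its 5' end, at 6.49 and 37.8 kb, Nfia held 2, and Klf12, Bach2 and Rarb held 1 each.

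Growth factor receptors and MAPK genes held members in 3 of 26 (11.5%), Fgfr1, Map2k6 and Map3k5. Egfr, the epidermal growth factor receptor, had none, although 3 narrow regions lay deep inside it. TGF-beta and BMP genes held members in 4 of 22 (18.2%), 1 each. They were the receptor genes Tgfbr2, Bmpr1b and Acvr1 and Ltbp1, which encodes a latency protein of TGF-beta. Of these 22 genes, 2 were over 200 kb, 2 of them with a member, and 16 were 50 to 200 kb, 2 with one. Chromatin and RNA regulators held members in 4 of 24 (16.7%), Kdm4c, Hdac9 with 2, the splicing factor gene Mbnl1 with 2, and Celf2. Of these 24 genes, 8 were over 200 kb, 2 of them with a member, and 15 were 50 to 200 kb, 2 with one. The list of Notch, Wnt and Hippo genes held none in 27 genes, 3 of them over 200 kb and 16 between 50 and 200 kb. In that list 8 genes held a narrow region, 1 each in Maml2, Lgr4, Lgr5, Lrp6, Tcf7l2, Wwtr1, Tead4 and Wwc1. Wnt5b, with its 3 members, is not on that list.

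**Figure D5:**
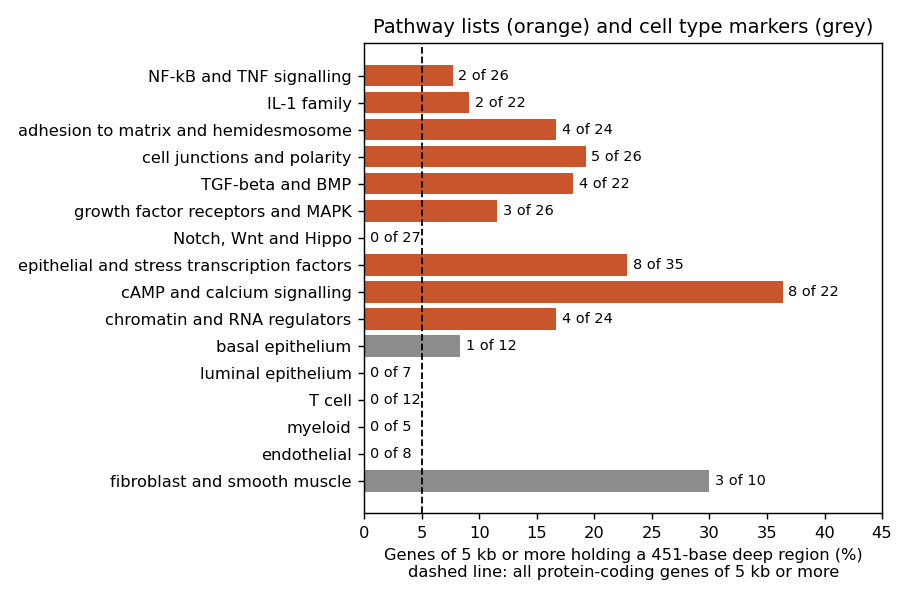
Share of genes of 5 kb or more that hold a member (x axis, percent) for the lists of pathway genes and of cell type markers described in the text (rows), with the counts printed beside the bars. The dashed line at 5.0% is the share over all 16853 protein-coding genes of that size, not matched for span. The cAMP and calcium list, at 36.4%, holds mostly genes over 200 kb, while the 3 of the fibroblast and smooth muscle list are under 50 kb.

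Lists of markers for lineages that the sample could hold are short, and most of their genes are in the span classes with low shares. Of 12 basal marker genes of 5 kb or more, Trp63 alone held members, and 4 others, Col17a1, Lama3, Egfr and Ngfr, held narrow regions. Krt5 held neither width, with the nearest member 1801 kb away. Little of its 5.84 kb lies over 2.5 kb from both ends. Krt14, of 4.35 kb, was too short for the position rule and could hold neither. Luminal markers held 0 of 7, T cell markers 0 of 12, myeloid markers 0 of 5 and endothelial markers 0 of 8. Of the 10 fibroblast and smooth muscle genes, 3 held a member (30.0%), all in the span class of 5 to 50 kb in which 1.51% of all genes held one. They were Col3a1, a fibrillar collagen, with the region 4.46 kb from its 5' end (chr1:45315774-45316224), Acta2, the smooth muscle actin, 3.98 kb from its end (chr19:34244086-34244536), and Dcn, decorin, 11.4 kb from its end (chr10:97506518-97506968). Only Dcn lay over 5 kb from a gene end. The part of such cells in these 3 regions was not tested.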

How the data were processed

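Of software, edgeR, HOMER 4.8, SAMtools and BWA 0.7.17-r1188 are named in the submitters' processing notes, with build mm10. Their order, thresholds and any pooling of libraries are not given in the sources used here. The authors deposited 1 merged list of start and end positions (starts counted from 0, printed here from 1) with no measured value, so no library could be fitted, left out or compared. Wide regions are 451 bases long and narrow ones 143.

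Regions were placed by their centre on RefSeq genes of GRCm38.p6, whose main chromosomes are those of mm10, and given to the shortest enclosing protein-coding gene. Strands, starts and sequences came from a RefSeq table of 32851 windows that has none for chromosome 18. It gave a strand for 661 of the 842 genes. Where windows of opposite strands overlapped, the sequences agreed as reverse complements in 1911 of 1911 pairs. No genome sequence was used, so motifs and base composition of the regions themselves were not analysed. In the start windows, exact letters of 20 motif families were searched on both strands. Shares were compared by Fisher's exact test with Benjamini-Hochberg adjustment (threshold 0.05) over 13 features, 20 chromosomes, or 4 features, and intervals are exact (Clopper-Pearson). They cover counting error only. Genes named are the 12 with most members (ties by density, so 4 of the 16 genes with 4 members), the 10 with the highest density among those with 3 or more, up to 5 per list, those of the 5 closest pairs and 5 deepest members, and 10 in any case, and other genes, and the sequences printed, were chosen after their positions were seen. Some genes and lists are not reported here. The members and lists were chosen with earlier results of these data known. The placing and the motif search were checked on simulated positions and sequences. Python 3.11.15 with pandas 2.3.3, numpy 2.4.6 and SciPy 1.17.1 was used.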

Additional observations from a re-analysis of the deposited data

How the results depend on the processing

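No paired analysis was possible because values per library are not part of what was analysed here, and for the same reason no replicate could be left out. The number of members, of genes holding them and of list genes holding them, and the number of features and of chromosomes that differed between widths, stayed within 1.5 times the main count in the 20 alternatives run for them: distance limits of 1, 5 and 10 kb, the whole region inside, all gene types, other enclosing genes, neighbours within 10 kb counted once, and autosomes only. Single comparisons between the widths changed in 13 cases, none by turning direction. With the 10 kb limit the deficit on chromosomes 5 and 19 did not pass (-2.64 and -1.96 percentage points, adjusted p = 0.0779 and 0.0574), nor did that of genes under 50 kb with 5 or 10 kb (-2.61 and -1.06 points). Past the threshold came genes of 50 to 200 kb (-6.24 points) and positions over 50 kb deep (5.39 points) with 10 kb, chromosome 4 with 5 and 10 kb (2.51 and 3.43 points), chromosomes 8 and 10 with neighbours counted once (-2.43 and 2.41 points), chromosome 10 on autosomes (2.53 points) and positions over 50 kb deep without chromosomes 10 and 13 (5.28 points). Also without chromosomes 10 and 13, centres in start windows of any gene did not pass (1.00 points). With the 10 kb limit the NF-kB list held no member and the IL-1 list 1 gene. Counting any overlap with a start window, and leaving out chromosomes, were chosen after the data were seen. By overlap the difference was 3.86 points, and 3.10 points without chromosomes 10 and 13 (Fisher's exact test, p = 2.5e-09 and 2.6e-06). A wide region touches a window more easily than a narrow one, so the overlap test cannot separate position from width. Motif and composition results for the regions were not run because no genome sequence was used.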

Other observations

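In 3 cases a member's centre lay within 5 kb of an annotated microRNA hairpin, a count that was not compared with other regions. The closest was the last member of Pde4d (chr13:109902822-109903272), 0.762 kb from Mir1904. The others were in Fam214a, 2.62 kb from Gm51280, and in Gcnt2, a branching enzyme of glycan chains, 3.37 kb from Mir5124a.

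Some members lay in the span of an annotated lncRNA gene as well as in the protein-coding gene. There were 74 such members (6.55%, exact 95% interval 5.18 to 8.16), against 68 of the narrow regions inside genes (5.0%, 3.90 to 6.29), a difference that did not pass (Fisher's exact test, adjusted p = 0.162). Among the wide regions that flank protein-coding genes the share was higher, 173 of 981 (17.6%; Fisher's exact test, adjusted p = 8.8e-15). By share of genes holding a member, chromosome 13 stood highest of the 21 chromosomes, with 56 of its 637 genes of 5 kb or more (8.79%), and chromosomes 11 and 7 stood lowest of those with any, at 1.87% and 2.24%.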
